A study of Mus musculus with 15 samples.

Results

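The genes described here encode the proteins of the mitochondrial ribosome, measured in foamy and non-foamy cells of the mouse microglial line BV2 with and without Trem2, a lipid-sensing receptor of macrophages and microglia. They were chosen by symbol: 83 gene symbols start with Mrpl or Mrps followed by a digit, 6 that carry the pseudogene ending -ps were dropped, and 77 remained of 54390 genes listed. By symbol 48 belong to the large subunit and 29 to the small subunit. All 77 passed the filter on low counts, which kept 14237 genes. RNA was sequenced from 15 libraries of BV2 cells in 4 groups. Of the WT libraries 4 came from foamy cells, kept overnight in 20 ug/mL soluble cholesterol, and 4 from non-foamy cells in medium alone, and of the Trem2-/- libraries 4 were foamy and 3 non-foamy. The study's methods describe genome editing of a Cas9-expressing BV2 line, itself 1 clone, followed by cloning of edited cells. How many Trem2-/- clones gave RNA is not given in the sources used here, so genotype and clone cannot be told apart. The sources used here do not say whether the numbered samples of a group came from separate cultures, and the p-values measure the spread between these samples, which may be technical.

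The mitochondrial ribosome translates only the few messages of mitochondrial DNA, all of them for membrane subunits of the respiratory chain and ATP synthase. Its rRNAs are copied from mitochondrial DNA, but every one of its proteins is encoded in the nucleus, made in the cytosol and imported. Many have bacterial counterparts, and the rest were added during the evolution of mitochondria. The small subunit decodes the message, while the large subunit forms the peptide bond and feeds the chain through an exit tunnel towards the inner membrane.

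Library depth ranged from 23538963 to 41683825 counted reads. Levels are given as CPM, the count of a gene scaled to the depth of its library and corrected by a TMM factor, which centres most genes on the same level. The 14 markers of neurons, glia, endothelium, fibroblasts, epithelium and lymphocytes never exceeded 80 counts, and 5 of them (Aqp4, Col1a1, Col1a2, Epcam and Syt1) were at 0 in all 15 libraries. The 10 microglia and macrophage markers all passed the filter on low counts. Trem2 itself was at 327 to 415 CPM in the 8 WT libraries and at 214 to 232 CPM in the 7 Trem2-/- libraries, a log2 fold change of -0.67 (SE 0.08) in non-foamy and -0.73 (SE 0.07) in foamy cells, so its transcript was reduced and still present. Cyp51, an enzyme of cholesterol synthesis that sterols repress, went from 130 to 140 CPM in WT non-foamy down to 74.6 to 83.5 CPM in WT foamy libraries, but from 41.0 to 45.9 CPM up to 61.5 to 64.3 CPM in the libraries labelled Trem2-/- non-foamy and Trem2-/- foamy. The sterol exporter Abca1 moved the other way in each genotype, from 28.9 to 36.7 up to 53.8 to 74.6 CPM in WT and from 78.4 to 87.2 down to 53.7 to 64.3 CPM in Trem2-/- cells. Each direction given below for cholesterol in Trem2-/- cells, and which Trem2-/- libraries enter each comparison of the genotypes, rests on those labels, and an exchange of the 2 Trem2-/- labels was not tested.

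Taken as a sum over the 77 genes, mitochondrial ribosomal protein mRNA had its highest group mean in WT non-foamy and its lowest in Trem2-/- non-foamy cells. The sums were 5201, 5141, 6050 and 5119 CPM in the WT non-foamy libraries and 4658, 4612 and 4467 CPM in the Trem2-/- non-foamy libraries, with no overlap. The means of the foamy groups lay between these, but single libraries did not all do so. The WT foamy libraries held 4346, 4824, 5155 and 5186 CPM, and the Trem2-/- foamy libraries 5009, 4717, 4718 and 5018 CPM, so WT foamy replicate 1 was below every other library and WT foamy replicates 3 and 4 reached the WT non-foamy range. The large subunit genes of non-foamy cells summed to 3698 ± 331 CPM (SD, n = 4) in WT and 3148 ± 73.7 CPM (n = 3) in Trem2-/- cells, and those of foamy cells to 3345 ± 272 CPM (n = 4) and 3344 ± 129 CPM (n = 4). The small subunit genes followed, with 1679 ± 120 and 1431 ± 27.1 CPM in non-foamy and 1533 ± 119 and 1522 ± 42.1 CPM in foamy cells of the same genotypes. Group means were ranked for the 77 genes only, without a share over all tested genes. Of the 77, 57 had their highest group mean in WT non-foamy cells and 56 their lowest in Trem2-/- non-foamy cells. Without WT non-foamy replicate 3, described next, these counts were 52 and 56, and the WT non-foamy sums were 3534 ± 43.7 CPM for the large and 1620 ± 15.2 CPM for the small subunit (SD, n = 3).

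**Figure D1:**
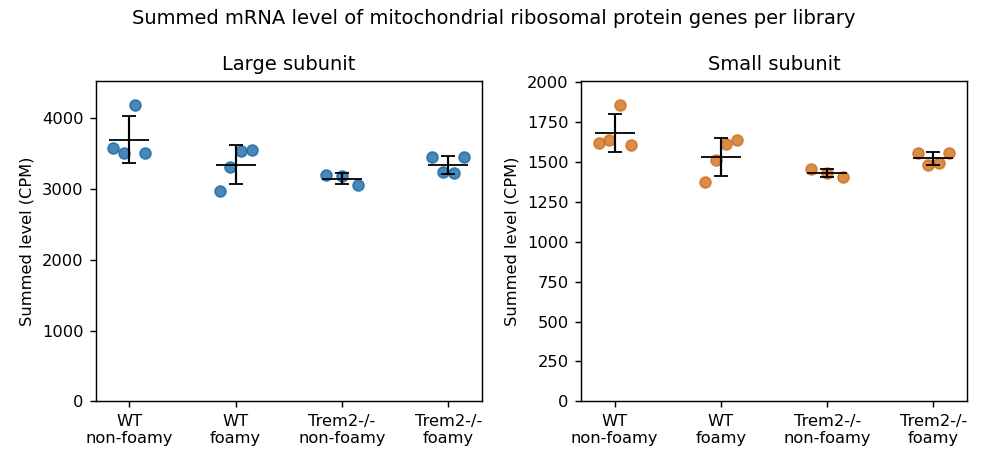
Summed CPM of the 48 large subunit genes (left) and the 29 small subunit genes (right) in each library, with the group mean and SD in black. Trem2-/- non-foamy libraries sit close together and below every WT non-foamy library, 1 WT non-foamy library, at 4192 and 1858 CPM, stands above the other 3, and 1 WT foamy library, at 2972 and 1373 CPM, is the lowest of all.

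WT non-foamy replicate 3 stood apart. It was the smallest library, and its sum of 6050 CPM compares with 5119 to 5201 CPM in the other 3. Its cytoplasmic ribosomal protein genes summed to 177879 CPM against 129575 to 132566 CPM, and its 13 mitochondrially encoded mRNAs to 79824 CPM against 59205 to 60558 CPM, so counts, medians and the main genes are also given without it. WT foamy replicate 1 was the lowest library in both subunits, at 2972 and 1373 CPM.

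Per kilobase of exon, the levels of the 77 genes spread widely. Mrpl12, a component of the L7/L12 stalk that recruits translation factors, was the highest, at 147 and 102.4 CPM per kb in non-foamy WT and Trem2-/- cells and at 125 and 121 CPM per kb in foamy ones. Mrps21, the counterpart of bacterial S21, followed with 117, 117, 115 and 125 CPM per kb in the same order, and Mrpl34, the counterpart of bacterial L34, with 106, 78.5, 93.3 and 86.6 CPM per kb. Mrps21 and Mrpl12 thus changed places between WT non-foamy and Trem2-/- non-foamy cells. The lowest were Mrps34 at 1.51 CPM per kb over all libraries, Mrps35 at 5.68 and Mrpl58, the peptidyl-tRNA hydrolase known as ICT1 that became a ribosomal protein, at 6.38 CPM per kb. Mrps34 is the least certain of them, since 77.8% of its exonic bases overlap Mapk8ip3 and Nme3 and reads in the overlap may not have been assigned.

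The first question was how the genotypes differed without cholesterol. Of the 77 genes, 49 were lower and 4 higher in Trem2-/- than in WT non-foamy cells at an adjusted p under 0.05 (edgeR quasi-likelihood test, adjusted over all 14237 genes). Of all genes tested, 22.6% were called lower and 21% higher. The median log2 fold change of the 77 genes was -0.35, against 0.02 over all genes, and 50 of the 77 were lower in every Trem2-/- library than in every WT library, against 23.5% of all genes. Both subunits took part: 31 of the 48 large subunit genes were lower and 3 higher, with a median of -0.36, and 18 of the 29 small subunit genes were lower and 1 higher, with a median of -0.29. Without WT non-foamy replicate 3, 46 genes were lower and 6 higher, with a median of -0.28. In RNA from bulk cultures, less of a transcript in every cell and fewer cells that carry it cannot be told apart.

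Mrps28, a small subunit protein whose human counterpart is mutated in a combined respiratory chain deficiency, had the largest difference. Its levels were 35.6, 33.9, 45.3 and 32.6 CPM in WT non-foamy against 21.1, 20.5 and 23.5 CPM in Trem2-/- non-foamy libraries. Every Trem2-/- library was below every WT library, and the log2 fold change was -0.76 (SE 0.12, adjusted p = 1.49e-05, edgeR). Mrps28 lies on the minus strand of chr3:8802146-8923918 (GRCm38) and overlaps no exon of another gene.

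Mrpl55, a large subunit protein with no bacterial counterpart (chr11:59202486-59206134, plus strand), was at 35.1, 36.2, 44.8 and 33.2 CPM in WT non-foamy and at 22.3, 21.8 and 22.5 CPM in Trem2-/- non-foamy libraries. The 3 Trem2-/- values lay within 1 CPM of each other and well below the WT range, with a log2 fold change of -0.74 (SE 0.11, adjusted p = 5.75e-06). Mrps22, a mitochondria-specific protein of the small subunit (chr9:98588730-98601660, minus strand), went from 62.0, 57.5, 64.1 and 53.2 CPM to 38.2, 38.3 and 36.2 CPM. Its log2 fold change was -0.65 (SE 0.09, adjusted p = 3.59e-06), again without overlap. Mrpl47, which sits at the exit of the tunnel, followed at -0.63 (SE 0.10), with 24.2% of its exonic bases overlapping another gene.

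The 4 genes that were higher went against the rest of the group. Mrpl52 (chr14:54426909-54429756, plus strand) was at 47.6, 51.5, 76.1 and 59.9 CPM in WT non-foamy and at 78.5, 70.2 and 69.1 CPM in Trem2-/- non-foamy libraries. WT non-foamy replicate 3 overlapped the Trem2-/- range, and the log2 fold change of 0.31 (SE 0.11, adjusted p = 0.0274) lost its call without WT non-foamy replicate 1 or 2 or Trem2-/- non-foamy replicate 1. Mrpl24, whose bacterial counterpart lies near the tunnel exit, had 65.7, 69.0, 84.3 and 63.3 CPM against 81.0, 82.8 and 86.4 CPM, a log2 fold change of 0.24 (SE 0.08, adjusted p = 0.0190). It too overlapped through WT non-foamy replicate 3, 26.3% of its exonic bases overlap Rrnad1 on the other strand, and its call was lost without WT non-foamy replicate 1 or 4 or Trem2-/- non-foamy replicate 3.

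Mrpl9, the counterpart of bacterial L9 (chr3:94443318-94451130, plus strand), had 104, 100, 118 and 101 CPM in WT non-foamy and 127, 124 and 116 CPM in Trem2-/- non-foamy libraries. Its log2 fold change was 0.21 (SE 0.06, adjusted p = 0.0106), and the call was lost without Trem2-/- non-foamy replicate 1. Mrps9, the counterpart of bacterial S9, was at 73.7, 66.6, 81.0 and 69.8 CPM against 85.8, 84.9 and 81.5 CPM, which did not overlap, with a log2 fold change of 0.21 (SE 0.07, adjusted p = 0.0138) whose call was lost without Trem2-/- non-foamy replicate 1 or WT non-foamy replicate 2. All 4 increases depended on the scaling: with library sizes set by total counts alone, which moved the median of all genes to -0.13, no member was called higher and 59 were called lower.

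Parts of the ribosome were then read on their own, beside the 22.6% of all genes called lower and 21% called higher. Differences between parts were not tested. Of the 5 proteins of the central protuberance, where the large subunit meets the small one, 4 were lower, among them Mrpl18 at -0.55 (SE 0.07, adjusted p = 2.45e-06). Of the 9 proteins around the tunnel exit 4 were lower and 1 higher, and their median of 0.05 turned to -0.09 with total counts. Genes listed with a bacterial counterpart and those listed without moved alike in direction. In the large subunit 18 of 29 and 12 of 18 were lower, and in the small subunit 9 of 15 and 6 of 9. These lists leave out some members, among them Mrps28 and Mrpl55, which were lower by most.

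In the stalk, Mrpl12 was at 216, 215, 261 and 209 CPM in WT non-foamy and 158, 148 and 164 CPM in Trem2-/- non-foamy libraries, a log2 fold change of -0.52 (SE 0.08, adjusted p = 7.94e-06). Mrpl10, which anchors Mrpl12, had 46.3, 49.2, 45.1 and 48.4 CPM against 36.7, 42.6 and 39.8 CPM (log2 fold change -0.25, SE 0.07, adjusted p = 0.00724). Mrpl11 at the base of the stalk had 59.7, 60.4, 74.8 and 60.6 CPM against 58.8, 56.6 and 52.4 CPM, a log2 fold change of -0.19 (SE 0.08) that did not pass the test (adjusted p = 0.0715).

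The 3 Mrps18 genes are paralogues of bacterial S18, and the product of Mrps18a is found in the large subunit despite its name. Mrps18b was lower, with 32.4, 36.5, 36.3 and 32.7 CPM in WT non-foamy against 26.9, 22.9 and 24.8 CPM in Trem2-/- non-foamy libraries (log2 fold change -0.47, SE 0.08, adjusted p = 5.12e-05). Gm16279 on the other strand overlaps 30.5% of its exonic bases. Mrps18a was lower by less, with 101, 119, 115 and 109 CPM against 94.9, 96.6 and 94.4 CPM (log2 fold change -0.22, SE 0.06, adjusted p = 0.00752). Mrps18c had 44.2, 45.8, 51.1 and 44.9 CPM against 46.7, 44.3 and 42.6 CPM and did not pass the test, at -0.06 (SE 0.10). Mrps30, another protein named for the small subunit that sits in the large one, was at 51.5, 47.7, 48.4 and 47.7 CPM against 47.7, 51.0 and 47.8 CPM, a log2 fold change of 0.00 (SE 0.08). Mrps36, now known as a subunit of the oxoglutarate dehydrogenase complex rather than of the ribosome, had 42.4, 44.6, 54.6 and 41.1 CPM against 43.6, 43.4 and 41.1 CPM, at -0.09 (SE 0.11, adjusted p = 0.525).

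Without WT non-foamy replicate 3 the differences of the genes that were lower were mostly nearer to 0. Mrps28 was then at -0.65, Mrpl55 at -0.65, Mrps22 at -0.62, Mrpl47 at -0.58, Mrpl18 at -0.49, Mrpl12 at -0.44 and Mrps18b at -0.44, each still called by edgeR, while Mrpl10 was at -0.27. Mrpl11 was at -0.11 and Mrps36 at 0.00, neither of them called. The 4 genes that were higher moved further from 0, to 0.45 for Mrpl52, 0.34 for Mrpl24, 0.27 for Mrpl9 and 0.26 for Mrps9. The central protuberance still had 4 of 5 lower and the tunnel exit 4 lower and 2 higher of 9. In the same incomplete lists, genes with a bacterial counterpart were lower in 17 of 29 large and 8 of 15 small subunit cases. Those listed without were lower in 11 of 18 and 6 of 9.

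Promoters of these genes are shown because so many members differed in the same direction. A RefSeq window of 300 bases on GRCm38.p6, of which 250 lie before the start, was given for 68 of the 77 genes, in 74 windows. The letters CCGGAAG, a core that ETS factors such as GABPA can bind, stood on either strand in 33.8% of these windows, against 8.86% of all windows and 18.1% of windows of tested genes. CATGCGC, from the NRF1 motif, was in 10.8%, 3.91% and 6.94%, and ATGGCGG, from the YY1 motif, in 16.2%, 4.05% and 8.02%. CCAAT was in 39.2%, 37.4% and 38.1%, CACGTG in 9.46%, 7.15% and 10%, and GGGCGGG in 43.2%, 25.6% and 44.4%, close to the windows of tested genes. CCGGAAG was in the windows of 17 of 41 genes called lower without cholesterol and of 8 of the other 27, and letters that match say nothing about binding in these cells. Of the 68 genes with a window, 20 hold at least 1 of the first 3 motifs in the 120 bases before the start. A motif cut by the edge of these bases, as in Mrpl39, was counted too. These bases are printed below for 5 of the 20, those among the 13 genes picked for the size of their difference in any of the comparisons. All read 5′ to 3′ along the gene, and capitals mark CCGGAAG or its reverse complement and, in Mrpl9, CATGCGC overlapping with its own reverse complement.
Mrps22, chr9:98601680-98601799, minus strand: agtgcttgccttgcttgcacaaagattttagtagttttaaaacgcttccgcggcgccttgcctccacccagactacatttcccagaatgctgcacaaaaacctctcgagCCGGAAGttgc
Mrps26, chr2:130563637-130563756, plus strand: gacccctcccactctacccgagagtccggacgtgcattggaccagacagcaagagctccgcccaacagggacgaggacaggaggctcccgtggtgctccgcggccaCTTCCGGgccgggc
Mrps27, chr13:99344666-99344785, plus strand: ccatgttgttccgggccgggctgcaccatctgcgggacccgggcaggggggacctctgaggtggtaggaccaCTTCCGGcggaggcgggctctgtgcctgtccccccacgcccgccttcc
Mrpl52, chr14:54426789-54426908, plus strand: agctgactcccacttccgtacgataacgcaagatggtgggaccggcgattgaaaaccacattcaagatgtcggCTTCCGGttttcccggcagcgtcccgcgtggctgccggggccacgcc
Mrpl9, chr3:94443216-94443335, plus strand: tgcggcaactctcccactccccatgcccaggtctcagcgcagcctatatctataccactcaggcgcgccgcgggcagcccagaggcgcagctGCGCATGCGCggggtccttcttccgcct

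Many of these genes also start close to the start of a neighbour read the other way. The neighbour can start before the gene or inside it, and where it starts inside, the pair overlaps. Of the 77, 33 (42.9%) had the start of a protein-coding gene on the other strand within 1000 bases, against 18.1% of 11271 tested protein-coding genes. Of 21 tested neighbours of genes called lower without cholesterol, 10 were lower and 4 higher. Of all genes, 22.6% were called lower and 21% higher. Mrpl46 and Mrps11, themselves among the 77, are both counted in these 10. Mrpl46 and Mrps11 are such neighbours of each other and both were lower, at -0.46 and -0.49. Their exons overlap, over 12.2% and 7.97% of their exonic bases, and how reads there were counted is not known. Mrpl51 was lower at -0.52 together with Ncapd2 of the condensin complex at -0.73, and Mrps12 at -0.53 with Sars2, a mitochondrial seryl-tRNA synthetase, at -0.50. Mrpl2 was lower at -0.50 beside Klc4, which was higher at 0.72, and Mrpl49 was lower at -0.14 beside Fau, which encodes the cytoplasmic ribosomal protein S30 fused to a ubiquitin-like protein and was higher at 0.47.

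With cholesterol the genotypes differed less in these genes. Of the 77, 15 were lower and 8 higher in Trem2-/- foamy than in WT foamy cells (edgeR), where 15.9% of all genes were called lower and 14.3% higher. The median log2 fold change was -0.07 against 0.00 over all genes, with -0.09 for the large subunit (11 lower, 7 higher of 48) and -0.07 for the small subunit (4 lower, 1 higher of 29). Without WT foamy replicate 1 these medians were -0.12, -0.15 and -0.10, and without WT foamy replicate 4 they were -0.03, -0.05 and -0.03. For 8 genes every Trem2-/- foamy library was below every WT foamy one, and for 6 every one was above, where 15% and 13.8% of all genes had such a gap. WT foamy replicate 1 bore on these counts: without it, 19 genes were lower and 4 higher. The count of genes that were lower was 6 without WT foamy replicate 4, 7 without Trem2-/- foamy replicate 3 and 9 without WT foamy replicate 2. With total counts alone 43 were lower and 3 higher, with a median of -0.20, and the median of all genes moved to -0.13.

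The gene that was lower by most was Mrpl55, with 25.2, 32.6, 32.6 and 33.8 CPM in WT foamy and 26.8, 23.0, 23.7 and 24.1 CPM in Trem2-/- foamy libraries. The ranges overlapped through WT foamy replicate 1, and the log2 fold change was -0.35 (SE 0.10, adjusted p = 0.00882), or -0.44 without that library. Mrps26, a mitochondria-specific protein of the small subunit (chr2:130563742-130568695, plus strand), was at 61.1, 57.9, 57.3 and 66.3 CPM against 54.6, 49.4, 52.4 and 43.7 CPM, without overlap, at -0.28 (SE 0.07, adjusted p = 0.00390). Mrps22 had 41.7, 48.6, 56.1 and 54.2 CPM against 44.2, 39.1, 39.2 and 43.6 CPM, at -0.27 (SE 0.08, adjusted p = 0.0156), and lost its call without WT foamy replicate 3 or 4 or Trem2-/- foamy replicate 3.

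The gene that was higher by most was Mrpl9, with 95.9, 103, 105 and 102.2 CPM in WT foamy and 135, 126, 130 and 128 CPM in Trem2-/- foamy libraries. The gap between the genotypes was wider than the spread of either, with a log2 fold change of 0.35 (SE 0.06, adjusted p = 1.01e-04). Mrpl30, the counterpart of bacterial L30, was at 147, 168, 200 and 188 CPM against 219, 204, 208 and 250 CPM, at 0.32 (SE 0.10, adjusted p = 0.0191), a call that was lost without WT foamy replicate 1 or 2 or Trem2-/- foamy replicate 4. Mrps9 had 66.1, 67.0, 70.8 and 69.1 CPM against 82.6, 80.1, 88.1 and 87.6 CPM, without overlap, at 0.31 (SE 0.06, adjusted p = 5.44e-04).

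The non-foamy and foamy comparisons share no library. Over the 77 genes their log2 fold changes had a Pearson r of 0.90, given as a description across genes, which are not independent. The sign was the same for 64 genes, and all 19 genes called in both had the same sign, 15 of them lower and 4 higher. This agreement was not computed over all tested genes, so it cannot be read as particular to the 77. All 49 genes that were lower without cholesterol had a difference nearer to 0 or above it with cholesterol, and 3 of them, Mrpl19, Mrpl21 and Mrps14, were then slightly above 0 and not called. The 49 were picked by their result without cholesterol, so some movement towards 0 is built into this count. The 4 higher in both were Mrpl9, Mrpl24, Mrpl52 and Mrps9.

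**Figure D2:**
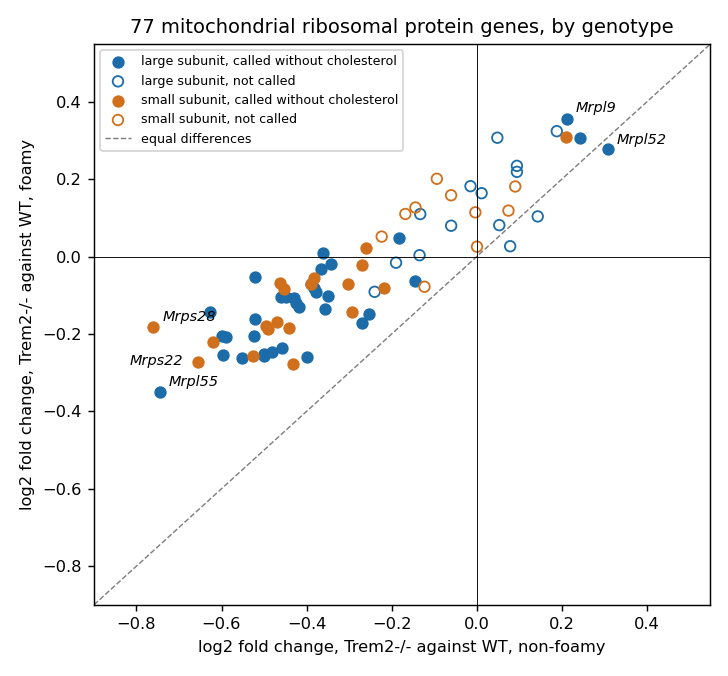
Log2 fold change of Trem2-/- against WT for each of the 77 genes without cholesterol (horizontal) and with it (vertical), coloured by subunit, filled where called without cholesterol. Nearly all points lie above the dashed line of equal differences, and Mrps28 lies far from it, at -0.76 and -0.18.

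The next question was what cholesterol itself did in each genotype, in comparisons that share the non-foamy and foamy libraries with those above. In WT cells, 2 of the 77 genes were called lower and 0 higher by edgeR, against 1.14% lower and 1.66% higher among all genes, while 29 had an unadjusted p under 0.05, as did 16.4% of all genes. The log2 fold change was below 0 for 74 of 77 genes, as for 48.8% of all genes, with a median of -0.13 against 0.01 over all genes. The median was -0.08 without WT non-foamy replicate 3 and -0.09 without WT foamy replicate 1, with 1 gene called in each case. DESeq2, another count test, called 10 lower, but the share of all genes that it called lower was not counted. For 12 of the 77, every foamy library was below every non-foamy one, against 5.13% of all genes.

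The called genes were Mrps5 and Mrpl18. Mrps5, the counterpart of bacterial S5 (chr2:127587222-127606829, plus strand), was at 72.8, 76.0, 77.7 and 75.4 CPM in WT non-foamy and 60.3, 63.4, 62.1 and 65.5 CPM in WT foamy libraries. The groups were well apart, with a log2 fold change of -0.26 (SE 0.06, adjusted p = 0.0141), and the call was lost without WT foamy replicate 2. Mrpl18 (chr17:12911349-12916345, minus strand) went from 78.9, 75.9, 91.2 and 76.0 CPM to 60.3, 66.9, 67.0 and 71.6 CPM, at -0.27 (SE 0.07, adjusted p = 0.0282), and lost its call without any of WT foamy replicates 1, 2 and 3 or WT non-foamy replicates 1 and 3.

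In Trem2-/- cells, edgeR called 0 of the 77 genes, and DESeq2 called 0 as well, while 5 had an unadjusted p under 0.05. Of all genes 0.14% were called and 6.44% had such an unadjusted p. The log2 fold change was above 0 for 71 genes, as for 51.3% of all genes, with a median of 0.11 against 0.00 over all genes and values from -0.12 to 0.25. In 14 genes every library labelled foamy was above every library labelled non-foamy and in 1 every one was below, where 5.38% and 3.88% of all genes had such gaps.

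**Figure D3:**
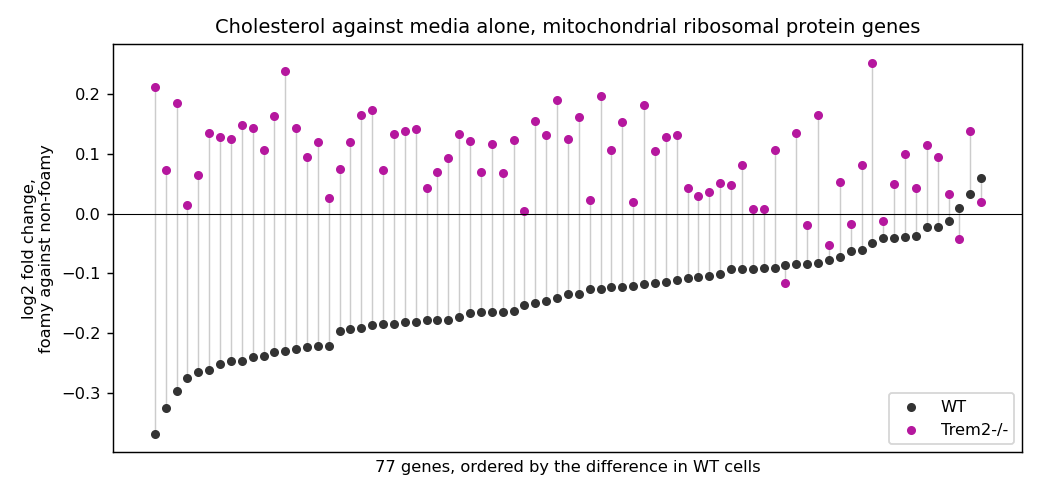
Log2 fold change of foamy against non-foamy cells for the 77 genes, in order of the value in WT cells (dark) and with the value in Trem2-/- cells (magenta) joined to it by a line. WT values lie below 0 for 74 genes and Trem2-/- values above 0 for 71, while only Mrps5 and Mrpl18 in WT passed the test.

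The difference between the responses was tested directly, as the response in Trem2-/- minus that in WT cells. It was called for 4 of the 77 genes, all in the positive direction, against 1.99% of all genes called positive and 1.64% negative (edgeR). The median difference was 0.25 against 0.00 over all genes, 0.24 in the large and 0.27 in the small subunit, and 40 genes had an unadjusted p under 0.05, as did 17.3% of all genes. Without WT non-foamy replicate 3, 3 genes were called and the median was 0.19. Without WT foamy replicate 1, 1 gene was called and the median was 0.21, and without Trem2-/- non-foamy replicate 2 no gene was called (0 by edgeR). With the replicate number as a block 2 genes were called. The 12 proliferation genes described at the end had responses of mostly the same signs, with a median difference of 0.28.

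Mrps28 had the largest difference, 0.58 (SE 0.16, adjusted p = 0.0428). It was at 23.3, 26.0, 32.9 and 31.9 CPM in WT foamy and 25.8, 24.4, 25.5 and 24.8 CPM in Trem2-/- foamy libraries, so the foamy genotypes overlapped where the non-foamy ones had been apart. This call was lost when any of 11 single libraries was left out, and without WT non-foamy replicate 3 the difference was 0.47. Mrpl12 differed by 0.47 (SE 0.10, adjusted p = 0.0142), with 175, 195, 194 and 204 CPM in WT foamy and 196, 187, 182 and 175 CPM in Trem2-/- foamy libraries, and its call was lost only without Trem2-/- non-foamy replicate 2.

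Mrps27, a pentatricopeptide repeat protein of the small subunit (chr13:99344786-99415562, plus strand), was at 39.8, 42.7, 46.0 and 40.7 CPM in WT non-foamy, 33.5, 38.5, 33.4 and 38.5 CPM in WT foamy, and, in Trem2-/- cells, at 30.7, 31.0 and 30.4 CPM without cholesterol and 35.2, 34.4, 34.9 and 32.8 CPM with it. It was lower with cholesterol by its WT means and higher by its Trem2-/- means, and the difference of 0.39 (SE 0.10, adjusted p = 0.0336) lost its call in 9 of 15 fits that left out a library and with the replicate block (adjusted p = 0.0590, edgeR). A non-coding transcript on the other strand overlaps 24.2% of its exonic bases. Mrps5 differed by 0.33 (SE 0.09, adjusted p = 0.0361), with 61.1, 58.1 and 54.4 CPM in Trem2-/- non-foamy and 60.6, 65.4, 58.7 and 57.3 CPM in Trem2-/- foamy libraries, which overlapped. Its call was lost in 11 of 15 fits that left out a library, with the replicate block (adjusted p = 0.0634, edgeR) and with no filter on low counts.

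**Figure D4:**
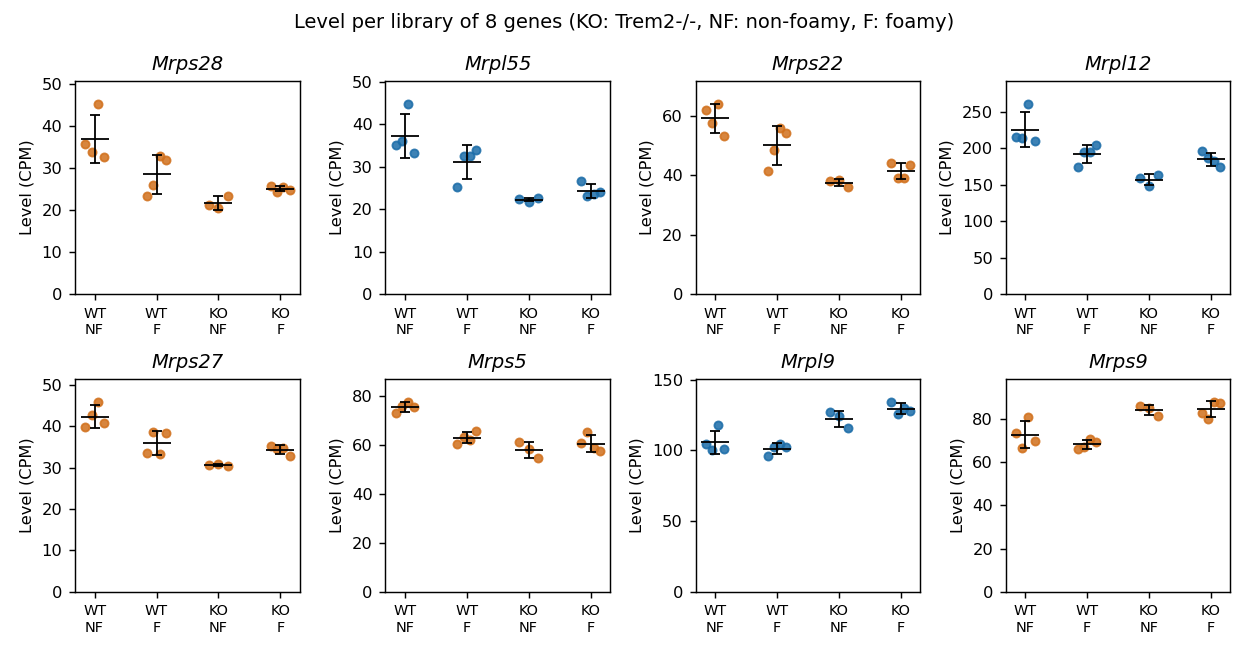
Level in CPM per library, with group mean and SD, of 8 genes, each axis starting at 0. Mrps28, Mrpl55, Mrps22, Mrpl12, Mrps27 and Mrps5 have their lowest group mean in Trem2-/- non-foamy cells, while Mrpl9 and Mrps9 are higher in both Trem2-/- groups.

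Other genes of mitochondrial translation were read from lists by the same test, beside the 22.6% of all genes called lower and 21% called higher without cholesterol. Of 5 mitoribosomal proteins named otherwise, 3 were lower in Trem2-/- non-foamy cells and 0 higher: Aurkaip1 (-0.38), Gadd45gip1 (-0.62) and Ptcd3 (-0.30). Of 27 factors that assemble the ribosome or modify its rRNA, 9 were lower and 3 higher, with a median of -0.20. Among them were Gtpbp10, a GTPase of large subunit assembly, at -0.74 (SE 0.10), and Mrm3, a methyltransferase of the large rRNA, at -0.51 (SE 0.09). Of 16 translation factors 8 were lower and 1 higher, among them the elongation factors Gfm1 at -0.53 (SE 0.08) and Tsfm at -0.50 (SE 0.09), while Oxa1l, which inserts nascent chains into the inner membrane, was higher at 0.50 (SE 0.08). Of 20 mitochondrial tRNA synthetases 10 were lower, among them Cars2 at -1.07 (SE 0.13) and Mars2 at -0.78 (SE 0.12), and 2 were higher. With cholesterol the counts were 1 and 0, 4 and 2, 2 and 2, and 10 and 2 in the same order, lower first, where 15.9% of all genes were called lower and 14.3% higher.

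The RNA parts of the mitochondrial ribosome differed between the genotypes by similar amounts with and without cholesterol, unlike the mRNAs of its proteins. The RNA selection is not given in the sources used here, so how it bears on rRNA counts is not known. Both rRNAs were higher in Trem2-/- cells, mt-Rnr1 at 0.64 (SE 0.12) and mt-Rnr2 at 0.75 (SE 0.13) without cholesterol and 0.66 (SE 0.11) and 0.68 (SE 0.12) with it. Of the 13 mitochondrially encoded mRNAs 2 were lower and 1 higher without cholesterol and none was called with it by edgeR, where DESeq2 called 1. Of 11 genes of mitochondrial DNA transcription and replication, 2 were lower and 1 higher without cholesterol, with a median of -0.12. With cholesterol 0 were lower and 1 higher. Without cholesterol Ssbp1, the single-stranded DNA binding protein of mitochondria, was higher at 0.47 (SE 0.09). Tfam, which packages and transcribes mitochondrial DNA, was lower there at -0.27 (SE 0.07).

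The proteins of the cytoplasmic ribosome went the other way from those of the mitochondrial one. Of 90 tested, 67 were higher and 2 lower in Trem2-/- non-foamy cells with a median of 0.37, and 52 were higher and 1 lower with cholesterol with a median of 0.28. For this list and the next, 21% of all genes were called higher and 22.6% lower without cholesterol. With cholesterol these shares were 14.3% and 15.9%. Rps27 was higher at 0.59 (SE 0.10) and Rpl15 at 0.59 (SE 0.10), many such genes have processed pseudogenes that can take reads, and the direction of the medians held under each scaling tried and without WT non-foamy replicate 3. Without WT foamy replicate 1, 25 were higher and 2 lower with cholesterol, with a median of 0.21. Of 81 nuclear subunits of oxidative phosphorylation 23 were lower and 8 higher without cholesterol, and 1 lower and 16 higher with it. Their medians of -0.10 and 0.09 were less firm, turning to 0.01 without WT non-foamy replicate 3 (21 lower, 18 higher) and to -0.03 with total counts, respectively. Ndufb6 was lower at -0.61 (SE 0.09) and Atp5g1 at -0.79 (SE 0.11), while Cox7a2l was higher at 0.76 (SE 0.09).

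**Figure D5:**
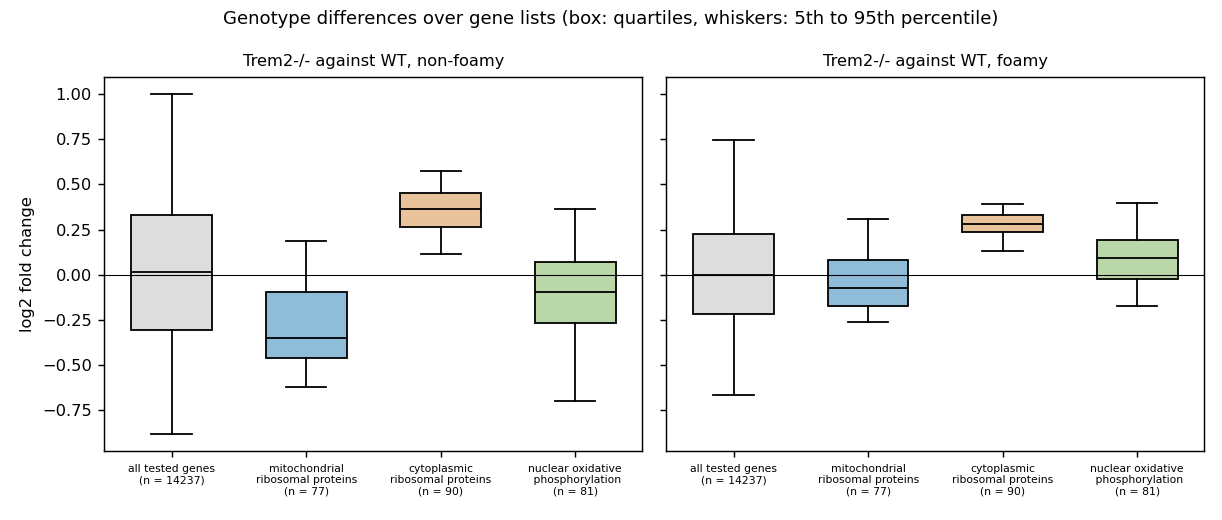
Log2 fold changes of Trem2-/- against WT cells over all tested genes and 3 gene lists, without cholesterol (left) and with it (right). Boxes span the quartiles with the median, and whiskers the 5th to 95th percentile. Mitochondrial ribosomal proteins have medians of -0.35 and -0.07 and cytoplasmic ones of 0.37 and 0.28.

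Proliferation genes moved with the same comparisons. All 12 listed were lower in Trem2-/- cells with and without cholesterol, and their summed level was 3171 to 3374 CPM in non-foamy and 2827 to 3075 CPM in foamy WT libraries and 1850 to 1945 and 1941 to 2047 CPM in the Trem2-/- ones. Mcm6 of the replicative helicase was lower at -0.97 (SE 0.06) without cholesterol. Their part in the differences of the mitochondrial ribosomal protein genes was not tested. Their median log2 fold changes between the genotypes were -0.86 without cholesterol and -0.59 with it. With cholesterol all 12 were below 0 in WT cells, with a median of -0.16 and 4 called lower, or 1 without WT foamy replicate 1, while in Trem2-/- cells 10 were above 0 with a median of 0.09. The difference between the responses was positive for all 12, with a median of 0.28 and 2 called.

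Overlap with other genes touched 17 of the 77 at more than 10% of exonic bases. Among them were Mrpl19 at 36%, Mrpl10 at 14.05%, Mrpl12 at 13.05% and Mrpl18 at 10.1%. Over the remaining 60, 37 were lower and 3 higher without cholesterol with a median of -0.32, and 14 were lower and 6 higher with it with a median of -0.07. Reads were plentiful for nearly all: 76 of the 77 had at least 100 counts in every library, the exception being Mrps34 with a lowest count of 53. Across the 77 genes the difference without cholesterol had a Spearman rho of 0.41 with mean CPM, -0.27 with GC content and 0.13 with exonic length, as descriptions over genes that share libraries.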

How the data were processed

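RNA of 15 BV2 samples was read from TruSeq RNA libraries, with the RNA selection not given in the sources used here. The authors deposited 1 table of raw read counts per gene for each library, made in the CHURP pipeline with Trimmomatic, HISAT2, SAMtools and featureCounts on GRCm38; the labels name the build mm10, and strand and multi-mapping settings are not given in the sources used here. Counts were used as deposited. Genes passing filterByExpr (minimum count 10; 14237 genes, 99.965% of counts) were scaled with TMM factors (0.918 to 1.11) and fitted in edgeR 4.0.16 (R 4.3.3) with 1 mean per group over 15 libraries, glmQLFit and glmQLFTest; the biological coefficient of variation was 10.2%. Calls are at a Benjamini-Hochberg adjusted p under 0.05 over all tested genes. SE is the log2 fold change divided by the square root of F. DESeq2 1.42.0, other scalings and filters, a fit with GC and length trends removed, and leaving out each library were alternatives. The fit was tested on simulated counts with known changes. Positions, exon lengths and overlaps came from GENCODE M21 and promoters from RefSeq, both on GRCm38.

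Members and lists were chosen with earlier results of these data known. Every member could be named; values per library are given for the 3 called members with the largest increase and decrease per comparison, for members fixed by role and for the highest and lowest per kilobase. Mrps9 without cholesterol was named beyond this rule, after its value was seen, as the last of the 4 higher genes, and so was Mrpl47; the neighbouring genes and Mrps5 in the difference between the responses were also picked after their values were seen. Replicates differed by more than counting noise in all 21 pairs (chi-square per gene 5.82 to 43.8). The labels do not say what a replicate number shared between groups marks. Deviations of same-numbered libraries correlated between -0.10 and 0.14 over 21 pairs, and those of other pairs between -0.23 and 0.17 over 63. Such correlations cannot exclude a shared culture day, so the replicate block was fitted as an alternative.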

Additional observations from a re-analysis of the deposited data

Results flagged for a closer look

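Of 66 groups of 4 libraries examined, 5 held a library far from the other 3 by Dixon's ratio, which chance alone gives in about 1 of 20 groups. WT non-foamy replicate 3 accounted for 4 of them: its large subunit genes summed to 4192 CPM against 3505, 3513 and 3584 CPM, its small subunit genes to 1858 CPM against 1606, 1617 and 1636 CPM, Mrpl11 was at 74.8 CPM against 59.7, 60.4 and 60.6 CPM, and Mrpl12 at 261 CPM against 209, 215 and 216 CPM. The other was Mrpl55 in WT foamy replicate 1, at 25.2 CPM against 32.6, 32.6 and 33.8 CPM. Without WT non-foamy replicate 3, the log2 fold change between genotypes in non-foamy cells went from -0.19 to -0.11 for Mrpl11 and from -0.52 to -0.44 for Mrpl12. Without WT foamy replicate 1, that of Mrpl55 in foamy cells went from -0.35 to -0.44.

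In 4 genes the response to cholesterol differed between the genotypes by the interaction test in edgeR. The difference on the log2 scale, Trem2-/- minus WT, was 0.58 for Mrps28, 0.47 for Mrpl12, 0.39 for Mrps27 and 0.33 for Mrps5. Each had a response below 0 in WT and above 0 in Trem2-/- cells, and of the 8 single responses only that of Mrps5 in WT passed the test.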

How the results depend on the processing

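Shares of all genes called were counted for the reported edgeR fit only. Changes in the counts of calls given here may therefore not be particular to the 77 genes. In every alternative the median of the 77 genes kept its sign in each comparison. With total counts alone it was -0.49 without cholesterol (large -0.50, small -0.44; 0 higher, 59 lower) and -0.20 with it (large -0.21, small -0.20; 3 higher, 43 lower), with all genes moved to -0.13 in both. Genes called lower in the WT response, 2 as reported, numbered 8 with total counts, 8 with no filter, 16 with GC and length trends removed, 13 when the replicate block was added to those, 1 with only the groups compared and 10 with DESeq2. Positive differences between the responses, 4 as reported, numbered 12, 8, 18, 9 and 12 under total counts, no filter, GC and length, these with the block, and DESeq2. The replicate block alone gave 2 there, 3 lower in the WT response and 51 of 53 genotype calls without cholesterol. Leaving out 1 library gave 0 to 3 lower in the WT response, 1 to 6 higher and 45 to 49 lower between genotypes without cholesterol, 4 to 10 higher and 6 to 19 lower with it, and 0 to 6 positive differences. The counts moved by more than 1.5 times without these libraries: WT foamy replicates 1 and 2 (1 and 0) and WT non-foamy replicates 1 and 3 (1 each) for the WT response; Trem2-/- non-foamy replicate 1 (1) and WT non-foamy replicates 1 and 2 (2 each) for genes higher without cholesterol; Trem2-/- foamy replicates 1 and 4 (5 and 4) and WT foamy replicates 1 and 2 (4 and 5) for genes higher with it; Trem2-/- foamy replicate 3 (7) and WT foamy replicates 2 and 4 (9 and 6) for genes lower with it; and, for the positive differences, Trem2-/- foamy replicates 1 to 3 (1, 2 and 2), Trem2-/- non-foamy replicates 1 to 3 (1, 0 and 1) and WT foamy replicates 1 and 2 (1 and 2). Of 301 values of single genes under alternatives, 252 kept direction and call, 49 kept direction only and 0 reversed. The cause was not tested. With 3 or 4 libraries a group, 2 of 24 differences between genotypes under 0.2 in size were called without cholesterol and 2 of 53 with it.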
